A study of Oncorhynchus kisutch with 221 samples.

Results

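A set of 100 array probes had a higher median in the white muscle of coho salmon caught in the ocean winter than in any of 5 earlier life stages. They were chosen out of 43636 probes. A probe could be chosen when at least 50% of the fish of each stage had a value for it and its standard deviation (SD) among fall fish was below 1, which left 17912. For each of these the largest median of the 5 other stages was subtracted from the winter median, and the 100 probes with the largest gap were taken. They were thus selected on their measured winter level, so every difference between stages below is a description and carries no test. Of the 17912 probes, 17.1% had a winter median above all 5 others, and no weight rests on that share.

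Single coho salmon (Oncorhynchus kisutch) were compared on 2-colour arrays, each fish against a pool of white muscle RNA, with the same dye on every fish. The 221 fish were wild or hatchery-reared and fell into 6 stages. These were 9 parr (hatchery fish of 2008 from the Chilliwack river), 48 smolts (20 wild and 28 hatchery fish from rivers, 40 of them from 2009), 15 spring fish (all wild, Strait of Georgia, 2009), 64 summer fish (38 wild, 26 hatchery; 57 from 2009), 76 fall fish (46 wild, 30 hatchery; 68 from 2009) and 9 winter fish (4 wild, 5 hatchery; all 2009). The area labelled WCVI, read here as the west coast of Vancouver Island, gave 8 summer, 10 fall and 6 winter fish, and the Strait of Georgia gave the other ocean fish. Age and feeding state are not in the labels used here, and the stages also differ in size: winter fish measured 29.9 to 38.0 cm in fork length, fall fish 17.1 to 35.2 cm, summer fish 12.1 to 24.1 cm and parr 4.8 to 5.5 cm.

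White muscle is the fast, mainly glycolytic muscle that makes up most of a salmon's fillet and powers bursts of swimming. It is also the main store of body protein. A young coho passes from parr to smolt in the river, enters the sea in spring, grows quickly through summer and fall, and meets short days, cold water and scarcer food in its first ocean winter. The probes are known only by their position on the array, written as a column and row such as C141R151. The tables used here pair none of them with a gene, a sequence or a place in the genome, so no function can be given and marker genes of muscle fibre types, blood, fat or immune cells could not be checked. In bulk muscle, fewer cells of a type and less RNA per cell cannot be told apart.

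Values are given as deposited and are read as the log2 of fish over pool. Neither the log base nor the direction is stated in the labels, so both are likely and not certain, and directions in the text rest on that reading. Array medians lay between -0.01 and 0.03, and 47.3% of all cells of the table were empty. The lowest correlation between any arrays was -0.43, and 90 of 24310 pairs lay below -0.3, but the dyes were the same for all fish, so the direction was kept. The number of arrays limits the precision, above all in winter. The 9 winter arrays lay on 6 slides. Winter replicates 4, 6 and 8 were the only fish on their slide, and 66.0% to 67.8% of all probes were empty in them, against 27.7% to 49.3% in the other 6 winter fish. Winter replicates 1 and 5 were the only fish on theirs. For these 5 fish, slide and stage cannot be told apart.

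Most gaps were small. They ran from 0.42 to 1.81 on the log2 scale with a median of 0.515, and 67 of the 100 probes had a gap under 0.6, 28 lay from there to 1 and 5 were above 1. The last probes inside the threshold had gaps of 0.4249 (C215R109) and 0.4248 (C223R007), and the next outside it had 0.4243 (C219R132) and 0.4237 (C072R057), so the set has no natural edge. The stage median had a median over the 100 probes of -0.36 for parr, -0.16 for smolts, -0.38 for spring fish, -0.28 for summer fish, -0.20 for fall fish and 0.55 for winter fish. The winter median was above 0 for 97 probes, and for 51 of them it was above 0 while the other 5 stage medians were at or below 0.

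The stage that came next below winter varied. It was the smolt stage for 36 probes, fall for 32, parr for 15, spring for 10 and summer for 7. Parr had the lowest median for 42 probes and spring for 29, while summer and fall were lowest for 13 each and smolts for 3. For 46 probes the range among the 5 other stage medians was wider than the gap to winter. The set therefore holds probes with quite different courses before winter, joined by a high winter median.

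The winter fish did not share the pattern evenly. Only 5 probes had every measured winter fish above the largest other stage median, against 0.117% of the 17912 probes, and of these 5 only C146R066 and C218R034 had a value in all 9 fish. Another 20 probes had all but 1 measured winter fish above it, and 39 had 3 or more winter fish that were not. No probe of the set had every winter fish above every fall fish, and 0% of the 17912 probes did. Winter fish lay on both sides of 0 for 91 of the 100 probes.

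Spread was wide within winter. The winter range of a probe had a median of 2.27 over the set, and it exceeded 2 for 58 probes and was under 1 for 8. The median SD among winter fish was 0.737 for the set and 0.403 for the 17912 probes, against 0.642 for the set and 0.414 for the 17912 among fall fish. The SD was larger in winter than in fall for 70 probes of the set and for 47.7% of the 17912. A high median of few, scattered fish is what the rule picks, so this spread is given as a description.

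C141R151 had the largest gap, 1.81 above smolts. Its winter values were 2.17, -0.33, 1.81, 1.86, 2.39 and -0.48 in replicates 1, 2, 3, 5, 7 and 9, and it was empty in replicates 4, 6 and 8. The 72 fall fish ran from -1.58 over a median of -0.22 to 1.76, the 47 smolts from -1.38 over 0.03 to 3.20, and the 63 summer fish from -1.78 over -0.38 to 2.84. Replicates 1, 3, 5 and 7 were above every fall fish, while replicates 2 and 9 lay below the fall median. The 6 measured parr lay between -1.45 and -0.48.

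C103R127 had the second gap, 1.27 above smolts, and a value in all 9 winter fish. They were 1.13, -0.27, 1.29, 1.17, 2.20, -0.03, 1.64, 0.62 and -0.61 in replicates 1 to 9. The 76 fall fish ran from -1.41 over -0.52 to 1.43 and the 9 parr from -0.78 over -0.15 to 0.25. Winter replicates 5 and 7 were above every fall fish, 2 of the 76 fall fish were above the winter median of 1.13, and replicates 2 and 9 were below the smolt median of -0.14.

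C096R108 split the winter fish most widely among the 10 probes with the largest gap. Its values were -2.98, 1.31, -0.68, -2.08, 0.78, 0.785 and 1.36 in replicates 1, 2, 3, 5, 6, 8 and 9, and its winter SD was 1.74. The 73 fall fish ran from -2.59 over -0.90 to 2.21, and the 61 summer fish from -3.14 over -0.78 to 4.22. Replicate 1 was below every fall fish and replicate 5, of the same slide, was the next lowest winter fish, while 4 fish lay above the spring median of -0.38. Without the 3 winter fish of the slide with many empty cells, of which replicates 6 and 8 held a value, the gap of this probe was -0.30. Replicates 2 and 9, on other slides, were higher still at 1.31 and 1.36. The part of the slide in the place of this probe in the set was not tested.

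C025R088 ran through the stages from a very low level in parr. Parr lay between -3.14 and -1.79 with a median of -2.39, below the medians of the 4 later stages before winter, which lay between -0.82 (fall) and -0.39 (smolts). Its 9 winter values were 1.95, -0.88, 0.75, 1.04, 1.66, 0.26, 1.68, -1.07 and -0.21 in replicates 1 to 9. In all, 7 of 9 winter fish were above the smolt median, replicates 2 and 8 were below the fall median, and 5 of 76 fall fish were above the winter median.

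C231R076, unlike it, was next highest in parr. Its winter values were 1.95, 1.68, -0.41, 1.65, 1.41 and -0.10 in replicates 1, 2, 3, 5, 7 and 9, and the 6 measured parr ran from -0.73 over 0.42 to 1.56. The stages between them had medians of -0.24 for smolts, 0.14 for spring fish, -0.38 for summer fish and -0.63 for fall fish, the lowest of the 6. Replicate 2, low in the first 2 probes, was among the high fish here, and 1 of 61 fall fish was above the winter median.

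C139R086 had more winter fish beyond the fall range. Its winter values were -0.76, -0.12, 1.40, 0.05, 1.24, 0.44, 1.54, 0.18 and 0.87 in replicates 1 to 9, against fall values from -2.39 over -0.86 to 0.39 in 73 fish. Of the 9 winter fish 5 were above every fall fish, no fall fish was above the winter median of 0.44, and replicate 1 alone was below the smolt median of -0.54. The gap was 0.98.

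C232R002 had winter values of -1.32, 0.64, 0.98, 0.17, -0.62, 0.29, 0.78, 0.78 and 1.38 in replicates 1 to 9. Fall fish ran from -2.17 over -0.60 to 1.59 in 73 fish. Of the 9 winter fish 7 were above the smolt median of -0.33, and the exceptions were replicates 1 and 5.

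The same pair was lowest for C035R128, at -2.22 in replicate 1 and -1.40 in replicate 5. The other winter values were -0.43, 0.38, 0.82, 1.67, 1.33 and 0.71 in replicates 2, 3, 4, 6, 8 and 9. In fall 10 of 60 fish (16.7%) were above its winter median of 0.54, and fall was the next highest stage at -0.43.

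C073R097 turned the order round. Replicate 1 was the highest at 2.32, followed by 1.30, 1.08 and 0.99 in replicates 3, 5 and 7, 0.38 in replicate 9, -0.24 in replicate 8, -0.54 in replicate 6, -0.90 in replicate 2 and -0.96 in replicate 4. Parr ran from -2.26 over -1.76 to -1.27, below every other stage median, and 9 of 76 fall fish were above the winter median.

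C018R133 completed the 10 largest gaps at 0.91. Its winter values were 0.74, 0.47, 2.10, 1.57, 1.12, 1.18, 1.05, 0.13 and -0.36 in replicates 1 to 9, and 74 fall fish ran from -2.92 over -0.72 to 2.15. The smolt median of 0.14 was next below winter, and replicates 8 and 9 were the fish not above it.

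The probes with the tightest and the loosest winter values stood far down the order. C256R076, with the smallest winter SD of 0.202, had 0.54, 0.54, 0.14, 0.45, 0.12, 0.40 and 0.09 in replicates 1, 2, 3, 5, 6, 7 and 9, all above the smolt median of -0.03. Of 75 fall fish, 1 (1.33%) was above its winter median of 0.40. C177R031, with the largest winter SD of 1.99, had 5.53 in replicate 4 and 0.55, 0.28, -0.04, 0.82, 0.64 and -0.13 in replicates 1, 2, 3, 5, 7 and 9. Its stage medians before winter lay between -0.02 and 0.10, and replicate 4 stood alone.

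The 2 probes with all 9 winter fish above every other stage median differed in their course. C218R034 had 0.27, 0.36, 0.52, 0.99, -0.02, 0.56, 0.43, 0.58 and 0.38 in replicates 1 to 9, and its other medians ran from -0.53 in spring to -0.03 in smolts. C146R066 had 0.70, 0.30, 1.06, 0.03, 0.42, -0.30, 0.55, -0.02 and -0.01, against a median of -2.01 for parr and medians between -0.76 (smolts) and -0.50 (fall fish) for the stages after it. In both, fall fish still reached into the winter range: 10 fall fish (13.2%) were above the winter median for C218R034 and 12 of 75 for C146R066. Over the whole set a median of 9.3% of fall fish were above the winter median, with a range from 0% to 37.1%, and for 49 probes it was more than 10%.

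The winter fish differed in how much of the set they carried. Replicate 3, a hatchery female from the Strait of Georgia, was above the largest other stage median at 90 of 100 probes. The share was 86.2% and 86.1% of the measured probes in replicates 6 and 8, 77.1% in replicate 9, 76.8% in replicate 4 and 71.1% in replicate 7. It was 62 of 100 probes in replicate 1, 58 of 100 in replicate 5 and 54 of 100 in replicate 2. Over the 17912 probes the same shares ran from 27.1% to 33.3%, and the difference is what the rule selects for.

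The fish also differed in how far they departed from the pool. The SD over the set was 1.40 in replicate 1 and 1.06 in replicate 5, against 0.55 to 0.84 in the other 7. In replicate 1, 26 probes were above 1 and 23 below -1, and 19 probes were above every fall fish. Over the 17912 probes, 7.41% were above every fall fish in replicate 1 and 6.29% in replicate 5, against 0.431% to 3.86% in the others, so these 2 arrays departed widely over the whole table. They shared a slide with no other fish, and the part of the slide in this was not tested.

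Some pairs of winter fish held similar patterns. Over the probes of the set, replicates 1 and 5 correlated at r = 0.76 (100 probes), replicates 1 and 7 at 0.72 (97 probes) and replicates 5 and 7 at 0.68 (97 probes). Replicates 6 and 8 correlated at 0.56 (75 probes) and replicates 4 and 6 at 0.51 (76 probes). The 1 and 5 pair shared a slide, as did replicates 4, 6 and 8, whereas replicate 7 shared its slide with smolt and summer fish.

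Other pairs ran against each other. Of the 36 pairs of winter fish, 20 had a correlation below 0, the lowest being -0.39 between replicates 6 and 7, and the median was -0.05. Over the 17912 probes the median was 0.14, and replicates 1 and 5 stood at 0.73, 1 and 7 at 0.66 and 5 and 7 at 0.68. These are correlations across probes within pairs of arrays. Probes are not independent, all arrays share the pool, and the choice of a high median over 9 fish itself lowers the correlation of fish over the chosen probes, so no p is given.

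The winter fish were also set beside the medians of the other stages over the set. Replicates 1, 5 and 7 correlated with the smolt medians at 0.57, 0.52 and 0.44 and with the fall medians at -0.01, -0.17 and -0.23. Replicate 8 correlated with the fall medians at 0.50 and replicate 6 at 0.37. Over the 17912 probes, replicates 1, 5 and 7 likewise stood nearer smolts, at 0.67, 0.62 and 0.59, than fall fish, at 0.22, -0.01 and 0.02. This was not particular to smolts. The same fish stood at 0.51, 0.57 and 0.46 with parr and at 0.69, 0.51 and 0.46 with spring fish. With summer fish they stood at 0.64, 0.45 and 0.42. All of these medians share the pool and the fish of their stage, and no p is given.

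Taken as 1 level per fish, the set separated winter from most other fish, as its choice requires. The median over the set in a winter fish was 0.39, 0.19, 0.67, 0.60, 0.48, 0.38, 0.46, 0.58 and 0.46 in replicates 1 to 9. Parr ran from -0.60 over a median of -0.37 to -0.26, smolts from -0.47 over -0.15 to 0.47, spring fish from -0.65 over -0.33 to -0.19, summer fish from -0.52 over -0.28 to 0.32 and fall fish from -0.59 over -0.20 to 0.26. At or above the lowest winter fish lay 2 smolts, 1 summer fish and 1 fall fish. The highest of them was a Capilano smolt at 0.47, above 5 of the 9 winter fish.

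The rule used the fall fish through their median and the limit of 1 on their SD and the summer fish through their median. It did not use the differences between fish of 1 stage by area, size, origin or sex directly. These were tested in summer and fall fish. Area of catch was compared first because 6 of 9 winter fish were WCVI fish, against 10 of 76 fall fish. The winter median thus rests mostly on WCVI fish and the fall median mostly on Strait of Georgia fish. A probe that is low in Strait of Georgia fall fish is more easily chosen, so the area contrast is not independent of the choice. Length went with area in fall, so the same limit holds for the length fits. Among summer and fall fish of 2009 together (18 WCVI and 107 Strait of Georgia fish, with stage as a covariate), 0 of 100 probes passed limma at an adjusted p of 0.05, and 0% of the 21760 probes tested did. At an unadjusted p under 0.05 stood 24 probes of the set, 18 of them higher in WCVI fish, against 9.37% of all probes. The smallest p in each direction belonged to C128R109, which was 0.71 higher in WCVI fish (SE 0.16, limma adjusted p = 0.0663), and C214R040, at -0.35 (SE 0.10, limma adjusted p = 0.22).

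In fall fish alone, part of the set was higher on the west coast. Of the 100 probes 16 were higher in the 10 WCVI fish than in the 58 Strait of Georgia fish of 2009 and 1 was lower, while 0.747% of the 21679 probes tested were higher and 0.392% lower (limma, adjusted p under 0.05). The differences of the 16 ran from 0.45 to 1.15. The median difference was 0.16 over the set and -0.01 over all probes, and 67 of the 100 were on the higher side, against 47.6% of all. The choice of the set can favour this direction, so these counts are given as values.

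C049R100 had the smallest p. It ran from 0.17 over a median of 0.735 to 1.20 in WCVI fall fish, against -1.26 over -0.05 to 0.955 in 57 Strait of Georgia fall fish. The means were 0.69 ± 0.35 (SD, n = 10) and -0.08 ± 0.42 (SD, n = 57), and they differed by 0.77 (SE 0.14; adjusted p = 0.00206 in limma). The groups overlapped, with all 10 WCVI fish above the Strait of Georgia median. In summer the same probe averaged -0.23 ± 0.63 in 7 WCVI fish and -0.11 ± 0.61 in 49 Strait of Georgia fish (SD).

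C003R090 was the probe that fell. It ran from -1.77 over -1.35 to -0.72 in WCVI fall fish, against -1.67 over -0.32 to 2.45 in Strait of Georgia fall fish. The difference was -1.01 (SE 0.25, limma adjusted p = 0.0272), while its winter median of 0.55 was above every other stage median. The call was lost with slide as a random block (-1.01, SE 0.27, limma adjusted p = 0.0543) and with fork length as a covariate (-1.09, SE 0.33, limma adjusted p = 0.237), both chosen after the result was seen. In fall fish of 2009 this probe was also 0.71 higher in hatchery than in wild fish (SE 0.18, limma adjusted p = 0.05). All WCVI fall fish but replicate 70 were wild, and the part of origin in the area difference was not tested. For C103R127, the probe with the second largest gap, the means were 0.46 ± 0.44 (SD, n = 10) in WCVI fall fish and -0.45 ± 0.63 (SD, n = 58) in Strait of Georgia fall fish, and they differed by 0.91 (SE 0.20; adjusted p = 0.0108 in limma).

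The area and the size of the fish moved together. WCVI fall fish measured 24.6 over a median of 30.2 to 35.2 cm, against 17.1 over 24.8 to 28.8 cm in Strait of Georgia fall fish. With fork length as a covariate, an alternative chosen after the result was seen, 0 of the 100 probes and 0% of all probes passed limma, and 27 probes of the set stood at an unadjusted p under 0.05, against 9.1% of all. With slide as a random block, also chosen afterwards, 8 passed, all higher in WCVI fish, against 0.567% of all. Under quantile normalization, also chosen afterwards, 17 passed, against 1.46% of all. Origin went with area as well, since all WCVI fall fish but replicate 70 were wild. Strait of Georgia fall fish of 2009 were both hatchery and wild. Origin was not in these fits, and its part was not tested.

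The area difference was set against that of summer. In summer fish of 2009, 3 of the 16 probes had a higher mean in WCVI fish than in Strait of Georgia fish. The fall difference minus the summer difference, also tested after the fall result was seen, passed limma for C023R063, at 1.05 (SE 0.26, limma adjusted p = 0.0354), and C218R034, at 0.76 (SE 0.19, limma adjusted p = 0.0356), against 0.436% of all probes. C023R063 averaged 0.31 ± 0.40 (SD, n = 10) in WCVI and -0.31 ± 0.47 (SD, n = 54) in Strait of Georgia fall fish, and -0.73 ± 0.36 (SD, n = 8) in WCVI and -0.31 ± 0.58 (SD, n = 48) in Strait of Georgia summer fish. Summer WCVI fish were no longer than the others: they measured 14.2 over 17.05 to 21.1 cm, against 12.9 over 18.0 to 24.1 cm.

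As 1 level per fish, the set lay between -0.16 and 0.26 in WCVI fall fish with a median of 0.00, against -0.56 to -0.01 with a median of -0.21 in Strait of Georgia fall fish of 2009. In summer the medians were -0.29 in WCVI fish and -0.28 in Strait of Georgia fish of 2009. The 5 highest fall fish were all WCVI fish, at 0.03 to 0.26, and no fall fish of either area reached the winter median of 0.46. That holds for the level of the whole set. Among the 16 probes higher in WCVI fall fish, 5 had a WCVI fall mean at or above their winter median. When winter was set against fall alone in WCVI fish of 2009 only (6 winter and 10 fall fish), the difference was above 0 for 91 of the 100 probes with a median of 0.58. The other 9 had differences at or below 0, the lowest being -0.29 for C073R110, and C223R007 stood at -0.12. These 6 winter fish are among those whose median chose the set, so most differences above 0 follow from the choice and nothing is read from them.

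A small part of the set was higher in longer fish. Over 140 summer and fall fish, with stage as a covariate, 6 of the 100 probes rose with fork length and 0 fell (limma, adjusted p under 0.05). Of these 6 probes, 5 were also among the 17 that passed for area in fall fish alone. Of the 21797 probes tested 2.54% passed in either direction, 1.24% rising and 1.3% falling. The slope was above 0 for 72 of the 100, against 50.6% of all, and its median was 0.02 per cm. C226R150 had the smallest p (limma adjusted p = 0.00233), rising by 0.11 on the log2 scale for each cm (SE 0.02). On the other side C072R135, at -0.06 per cm (SE 0.02, limma adjusted p = 0.0792), did not pass.

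The length count depended on area as the area count depended on length. With area as a further covariate 3 probes passed, against 0.551% of all. In Strait of Georgia fish alone 0 passed, against 0.224% of all. There 10 of the 100 probes and 13.6% of all stood at an unadjusted p under 0.05 in limma. Both fits were chosen after the length result was seen. In fall fish alone 4 passed, all rising, against 0.664% of all. Area and length were fitted on the same fish, and they cannot be fully told apart here.

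Condition, origin and sex gave no call in the set over summer and fall fish together, each in the fish that had the label. Condition factor (100 times mass over length cubed), over 131 fish with a mass, passed limma for 0 of 100 probes and 0% of all, with 10 of the set and 5.51% of all at an unadjusted p under 0.05. C039R105 had the smallest p at 0.11 per SD of condition (SE 0.04, limma adjusted p = 0.74), and C168R019 stood at -0.14 (SE 0.06, limma adjusted p = 0.854).

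Hatchery and wild fish of 2009 (54 and 71) differed in limma at 0 of 100 probes and 0% of all, with 14 of the set and 9.06% of all at an unadjusted p under 0.05. C009R142 averaged 0.11 ± 0.77 in 54 hatchery fish and -0.25 ± 0.54 in 71 wild fish (SD), a difference of 0.36 (SE 0.11, limma adjusted p = 0.364). C123R093 stood at -0.25 (SE 0.10, limma adjusted p = 0.452). In fall fish alone 3 of the 100 were higher in hatchery fish and 0 lower, against 0.296% of all probes higher and 0.185% lower (limma, adjusted p under 0.05). Area was not in that fit.

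Females and males (58 and 70) differed in limma at 0 of 100 probes, with 9 of the set at an unadjusted p under 0.05, and at 0.00913% of all probes, with 8.16% of all at an unadjusted p under 0.05. C054R112 was 0.27 higher in females (SE 0.09, limma adjusted p = 0.342) and C048R165 differed by -0.46 (SE 0.13, limma adjusted p = 0.28).

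Within winter the same contrasts had 9 fish, and the median of these same 9 fish chose the set. A probe that is high in the larger of 2 groups of winter fish is more easily chosen, so counts and directions in the winter contrasts are given as values and nothing is read from them. WCVI and Strait of Georgia fish (6 and 3) differed at 0 of 97 testable probes in limma and 0% of all, with 2 of the set and 2.11% of all at an unadjusted p under 0.05. C021R050 was 0.87 higher in WCVI fish (SE 0.365, limma adjusted p = 1) and C146R066 differed by -0.58 (SE 0.25, limma adjusted p = 1). These fits recovered 0% of simulated shifts as large as 1.

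Hatchery and wild winter fish (5 and 4) differed in limma at 0 of 88 testable probes and 0% of all. At an unadjusted p under 0.05 stood 15 of the 88 and 6.28% of all, in a fit on the values by which the 88 were chosen, with hatchery fish as the larger group. C035R016 averaged 1.22 ± 0.98 in 4 hatchery fish and -0.45 ± 0.60 in 4 wild fish (SD), a difference of 1.67 (SE 0.48, limma adjusted p = 0.672). C028R162 differed by -0.76 (SE 0.32, limma adjusted p = 0.672). The slide of replicates 4, 6 and 8 held hatchery fish only and the slide of replicates 1 and 5 wild fish only, so for these 5 fish origin and slide cannot be told apart.

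Female and male winter fish (5 and 4) differed in limma at 0 of 100 probes and 0% of all, with 5 of the set and 1.24% of all at an unadjusted p under 0.05, again on the values that chose the set and with females as the larger group. C139R086 averaged 1.05 ± 0.55 over the 5 females and -0.10 ± 0.50 over the 4 males (SD), and they differed by 1.14 (SE 0.33; adjusted p = 1 in limma). C152R024 differed by -0.55 (SE 0.27, limma adjusted p = 1).

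The probes of the set did not vary together as 1 group. Over fall fish the median correlation of the 4950 pairs of probes was 0.03, and 36 pairs (0.727%) were above 0.6, against 0.28% of all pairs among the 17912 probes. These 36 pairs joined 43 of the probes into 13 groups, the largest of 11, and the other 57 probes had no partner. A group can be joined by a chain of pairs, so pairs inside it need not all be above 0.6. Fish, slides and the pool are shared by all pairs, and probes for 1 gene could be among them.

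The group of 11 held C025R088, C073R097, C003R090 and C146R066. Its median in a winter fish was 1.69, -0.88, 0.82, 0.47, 0.55, 0.26, 0.55, -0.04 and 0.21 in replicates 1 to 9, so replicate 2 was the low fish. Its stage medians were -1.16 for parr, -0.36 for smolts, -0.53 for spring fish, -0.44 for summer fish, -0.40 for fall fish and 0.46 for winter fish. A group of 6 that included C141R151 had 0.60 in winter and -0.37, 0.50, 0.61, 0.18, 0.29, 0.24, -0.29, 0.55 and 0.65 in the 9 fish. Its probes were split within winter. In replicate 1, C141R151, C028R162 and C230R097 stood at 2.17, 0.67 and 1.02. C048R165, C259R111 and C250R167 stood at -2.94, -2.18 and -1.40 in the same fish. The medians of this group thus do not describe C141R151.

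The 3 probes most like C141R151 over fall fish were C090R167 (r = 0.82, 72 fish), C028R162 (r = 0.67, 72 fish) and C143R139 (r = 0.66, 70 fish). Of these only C028R162 belonged to the set. C090R167 had a winter median of -0.02, just above the -0.09 of smolts, although it followed C141R151 closest in fall. C143R139 had 0.71 in winter and 0.83 in parr, with 2.41, 1.71, 2.68 and 1.73 in winter replicates 1, 2, 5 and 7 and values below 0 in the other 4 measured winter fish.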

How the data were processed

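White muscle RNA of single fish was hybridised against a pool of the tissue on 2-colour arrays, per the labels' protocols, with 1 Alexa dye on every fish and another on the pool. The deposited table gives normalized values, but how background, normalization and empty cells were handled is not given in the sources here. The authors' deposited values were read as log2 of fish over pool, which is likely: against a pool made of the same fish the linear ratio of a probe should average near 1. For 372 probes with a variance over 1.6, that average had a median log2 of -0.03 on this reading and 1.64 on the reverse. Among probes with a variance under 0.2 (in 2 bins) the reverse came closer to 0, with -0.08 and -0.01 against 0.13 and 0.11. The series table's columns were all used, with 0 left out; in it, parr replicate 3 has no values for the last 6762 probes. A further table, which has control rows and some values of that fish that this one lacks, was not used here.

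Fish are separate animals, grouped by the season label. The set, the lists and the tests were chosen with earlier results of these data known. Values were not normalized again. Stage differences were described only. Contrasts within stages used R 4.3.3 with limma 3.58.1 (lmFit, eBayes) over every probe with a value in at least 50% of the fish of each group, with Benjamini-Hochberg adjustment over all of them and a threshold of 0.05; stage was a covariate in summer and fall fish. A mass of 0 was taken as not recorded. Medians and counts used Python 3.11.15 with pandas 2.3.3. Probes named are the 10 with the largest gap, ranks 99 to 102, the smallest and largest winter SD, the smallest p in each direction of each test, and the 3 most like the first probe over fall fish. C146R066, C218R034, C049R100, C003R090 and C023R063, and the joined groups, were singled out after their values were seen. Probe identifiers matched no entry of the gene table, so gene lists were not tested.

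Each main contrast was tested on simulated data in which 200 probes were changed. The fits in fall fish alone and the fits chosen after a result was seen were not simulated. Simulated fish were independent, whereas the within-slide correlation was 0.167 in the length fit and 0.176 in the origin fit. It was 0.25 in the area fit of fall fish alone, which was not simulated. At a shift of 0.5, 65% were recovered for area over 21760 probes, 88% for origin over 21896, and 93% for sex over 21908. For the 9 winter fish 0% were recovered at 0.5 or 1. Alternatives were quantile normalization, centring, stage means, other filters, slide blocks, other labels as covariates, 1 stage alone, and leaving out fish.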

Additional observations from a re-analysis of the deposited data

Results flagged for a closer look

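In 30 sets of values (the named probes and the level of the whole set, in parr and in winter fish), 4 held a fish far from the others. A chance rate of about 1 set in 20 cannot be set beside this count. The sets share the same fish, winter values chose the probes, and C177R031 was named for its large winter SD. C177R031 stood at 5.53 in winter replicate 4, and the next of its 7 winter fish was at 0.82. C096R108 stood at 1.16 in parr replicate 9, with the next of 8 parr at -1.24. C035R128 stood at 0.28 in the same parr, with the next of 5 at -0.82. C232R002 stood at -1.90 in parr replicate 8, with the next of 8 at -0.64. The causes were not tested.

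The area difference (WCVI minus Strait of Georgia) was larger in fall than in summer for 2 probes by a test of the difference itself over 125 fish of 2009. It differed by 1.05 for C023R063 and by 0.76 for C218R034 (limma, values with their p in the report). Fork length and origin differed by area in fall and were not in that fit.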

How the results depend on the processing

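The choice of the set depended strongly on the rule and on single fish. Of the 100 probes, 51 were chosen again with stage means in place of medians, 48 with no filter on the fall SD and 26 with a fall SD below 0.5 (that filter left 26 of the 100 to choose from). Leaving out 1 winter fish kept 53 to 72, the lowest without replicate 3 and the next, 57, without replicate 9. Leaving out the 3 winter fish of 1 slide kept 41 and leaving out the 2 of another kept 49, both chosen after seeing the data. Quantile normalization kept 74, median centring 97 and an 80% filter on empty cells 73 (that filter left 73 of the 100 to choose from). The median gap of the set moved less than its spread: 0.443 to 0.562 without 1 winter fish, and 0.358 with means. Single gaps were less stable: 6 of the 100 were at or below 0 with means and 20 without the 3 fish of 1 slide. In 2 settings winter was set against fall only, which is not the gap over 5 stages. That difference was at or below 0 for 14 probes on the 2 slides that held winter and fall fish (2 winter and 3 fall fish). It was so for 9 in WCVI fish of 2009. With means C141R151 had a gap of 1.00 and C096R108 of 0.03. Of the named probes, C096R108 turned to a gap of -0.30 without the 3 fish of 1 slide. Against fall only, C223R007 stood at -0.12 in WCVI fish of 2009 and C177R031 at -0.13 on the 2 slides that held winter and fall fish.

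For fork length the count of 6 became 3 when slides were fixed blocks (134 of 21797 probes in all), 2 with the other labels as covariates (383 of 21797), 0 in summer fish alone (0 of 22153), 0 in Strait of Georgia fish alone and 3 with area as a covariate. For origin the count of 0 was 3 in fall fish alone. For area the count of 0 was 17 in fall fish alone, 17 there under quantile normalization and 8 there with slide as a random block. The area difference of C214R040 changed sign, from -0.35 in the main fit to 0.0656 with the other labels as covariates. The causes were not tested. The counts of 0 for condition, sex and the winter contrasts stayed at 0 under each alternative run, which says little for winter, where the simulated shifts were not recovered. No paired analysis was possible because replicate numbers were given in accession order and pair no fish; slide stood in as a block.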

Other observations

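Summer fish of the Strait of Georgia had a level of the set of -0.32 over a median of -0.01 to 0.32 in 7 fish of 2008, against -0.49 over -0.28 to 0.10 in 49 fish of 2009. In fall the order was not the same: 8 fish of 2008 ran from -0.59 over -0.26 to -0.15, against -0.56 over -0.21 to -0.01 in 58 fish of 2009. These differences between years were not tested.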
